A study of Homo sapiens with 12 samples.

Results

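The genes described here are those whose response to EBF1 differed between 2 established cell lines, L-428 and L-1236, which derive from Hodgkin lymphoma. For each array row with a gene symbol, the change from tGFP alone to tGFP/EBF1 was measured in each line, and the change in L-1236 was subtracted from that in L-428. This difference of effects passed an adjusted p of 0.05 (limma, Benjamini-Hochberg over all rows tested) in 1061 of 20546 rows, from a table of 32321 rows and all 12 arrays of the series. Values are log2 signals, so a difference of 1 is a 2-fold change, and a positive difference of effects means that EBF1 raised the signal more, or lowered it less, in L-428.

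Each line was studied in a tGFP and a tGFP/EBF1 group, which gives 4 groups of 3 arrays. Cells of both lines were transduced with a vector for the green fluorescent protein tGFP alone, or for tGFP and EBF1 joined by an internal ribosome entry site, and were kept in culture for 8 days, when the cells positive for tGFP were sorted for RNA. The controls of each line thus carry the same vector and marker protein without EBF1. The labels call the 3 samples of a group independent but do not say whether they came from separate transductions, so the p-values measure the spread between these samples, which may be in part technical. Each line is a single tumour's cells, and what holds for one of them need not hold for other Hodgkin tumours.

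EBF1 is a DNA-binding factor that, with PAX5 and E2A, starts the gene programme of early B cells and opens chromatin at B-cell genes. Hodgkin tumour cells descend from germinal centre B cells but have lost most of that programme, while NF-kappaB and JAK-STAT signalling and many cytokine and chemokine genes are active in them. EBF1 binds a near-palindromic site with the core CCC, a short spacer and GGG. Transcription factors act on the chromatin and with the partner factors that a cell already holds.

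The promoters of 6 of the genes the results turn on are shown first, as the 250 bases before the annotated start in RefSeq (GRCh38.p14), each read 5′ to 3′ on the gene's own strand. SLC26A4 (chr7:107660578-107660827, plus strand) had the largest difference of effects. LRP1 (chr12:57128233-57128482, plus strand) and PLXNA1 (chr3:126982865-126983114, plus strand) rose in L-1236 and are the leading responders of that line with a match to CCCNNGGG, in capitals, whose first bases lie at -157 and -93 from the start. TNFRSF9 (chr1:7940840-7941089, minus strand) and IL6 (chr7:22726950-22727199, plus strand) are targets of NF-kappaB that rose in L-428 and fell in L-1236, and capitals mark matches to the NF-kappaB motif (GGGA, then 2 bases of any kind, then TTCC) in both and to TTCNNNGAA, the spacing of a STAT site, in TNFRSF9. CISH (chr3:50611775-50612024, minus strand), a feedback inhibitor of STAT5 signalling, rose in L-1236 alone, and capitals mark its matches to TTCNNNGAA.
SLC26A4: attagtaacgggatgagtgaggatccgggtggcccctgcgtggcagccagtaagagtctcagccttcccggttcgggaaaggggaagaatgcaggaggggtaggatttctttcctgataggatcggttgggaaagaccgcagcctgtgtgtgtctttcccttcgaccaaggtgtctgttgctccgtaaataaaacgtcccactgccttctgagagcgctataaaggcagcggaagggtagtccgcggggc
LRP1: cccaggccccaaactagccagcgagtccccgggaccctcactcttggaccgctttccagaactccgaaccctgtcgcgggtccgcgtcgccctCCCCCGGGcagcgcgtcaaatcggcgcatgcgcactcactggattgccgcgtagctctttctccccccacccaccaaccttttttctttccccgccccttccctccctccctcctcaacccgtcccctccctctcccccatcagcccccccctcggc
PLXNA1: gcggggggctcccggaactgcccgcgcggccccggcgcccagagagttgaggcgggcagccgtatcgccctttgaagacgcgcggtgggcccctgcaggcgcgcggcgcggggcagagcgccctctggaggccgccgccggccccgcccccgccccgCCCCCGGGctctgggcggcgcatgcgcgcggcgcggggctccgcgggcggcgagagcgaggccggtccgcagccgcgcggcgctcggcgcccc
TNFRSF9: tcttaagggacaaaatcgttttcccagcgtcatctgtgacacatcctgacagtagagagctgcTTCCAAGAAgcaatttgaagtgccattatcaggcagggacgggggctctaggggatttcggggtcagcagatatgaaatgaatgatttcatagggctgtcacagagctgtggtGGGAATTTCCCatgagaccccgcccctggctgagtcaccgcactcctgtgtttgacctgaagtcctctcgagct
IL6: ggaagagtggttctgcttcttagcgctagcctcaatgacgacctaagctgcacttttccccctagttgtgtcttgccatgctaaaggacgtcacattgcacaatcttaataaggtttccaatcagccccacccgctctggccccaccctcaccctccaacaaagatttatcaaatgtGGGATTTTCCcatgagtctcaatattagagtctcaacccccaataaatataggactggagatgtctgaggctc
CISH: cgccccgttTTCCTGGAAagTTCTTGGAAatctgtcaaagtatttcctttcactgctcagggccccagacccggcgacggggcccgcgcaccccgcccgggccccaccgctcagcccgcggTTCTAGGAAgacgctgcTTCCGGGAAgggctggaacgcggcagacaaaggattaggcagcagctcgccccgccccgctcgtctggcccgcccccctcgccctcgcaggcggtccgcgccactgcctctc

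A match is a description of letters and no measurement of binding. Both strands were searched, and over 27305 RefSeq promoters of the same length CCCNNGGG occurred in 16.6%, TTCNNNGAA in 6.78% and the NF-kappaB motif in 1.42%. The TNFRSF9 window holds 2 overlapping matches to the NF-kappaB motif, at -74 and -73, and the IL6 window 1, at -73. The CISH window holds 4 matches to TTCNNNGAA, the nearest at -112. The SLC26A4 and CXCL9 windows hold none of these motifs in these letters. Among genes with opposite effects, CCCNNGGG was found in 3 of 24 promoters of genes higher in L-428 and lower in L-1236. For the reverse kind it was found in 2 of 14. Among all genes tested it was found in 19.8% of 14230 promoters, and among genes with a called difference in 22.4% of 798. Both kinds with opposite effects lay below these shares, but the comparison rests on 3 and 2 promoters and was not tested.

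Array medians lay between 7.186 and 7.313 and correlations between arrays of a group between 0.992 and 0.9974 over all rows. The 3 arrays a group limit the precision, and the median standard error of a difference of effects was 0.0981. The interquartile range was narrower for L-428 tGFP replicate 3 (2.285) than for its fellow arrays (2.488 and 2.474). The same was seen for L-1236 tGFP/EBF1 replicate 1 (2.168, beside 2.313 and 2.258). These 2 arrays stand apart, and the main counts of calls are given with and without them. Comparisons of control levels rest on all arrays unless stated. Lists of markers of other cell types were summed as means. The mean over 24 T- and NK-cell markers lay between 7.049 and 7.181 on every array, over 23 myeloid markers between 6.816 and 7.036, and over 17 stromal, endothelial and epithelial markers between 7.178 and 7.378. In both lines 15 of the 24, 16 of the 23 and at least 8 of the 17 were under the median of every array. Of the B-cell and Hodgkin markers, PAX5 and TNFRSF8, which encodes CD30, were above the median of at least 1 array in both lines. CD79A was under the array median on every L-428 array and every L-1236 tGFP array. Group means lay between 5.86 and 5.89 for the B-cell marker MS4A1 and between 6.94 and 7.28 for CD79B.

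EBF1 itself rose in both lines, and unequally. Its signal on the 3 L-428 tGFP arrays was 8.63, 8.37 and 8.34 and on the L-428 tGFP/EBF1 arrays 12.96, 12.98 and 12.93. On the L-1236 tGFP arrays it was 7.24, 7.13 and 7.16 and on the L-1236 tGFP/EBF1 arrays 13.07, 13.27 and 13.10. The lines therefore differed by 1.27 without the vector's EBF1 and by -0.19 with it (L-428 minus L-1236; limma, adjusted p = 3.52e-11 and 0.0422). The effects of 4.51 and 5.97 gave a difference of -1.46 (95% interval -1.69 to -1.24; limma, adjusted p = 1.15e-07), of which the control level makes up the larger share. The row is annotated with EBF1 and PDGFRB, and its RefSeq transcripts are those of EBF1. The other differences of effect described here were thus measured at nearly equal EBF1 signal in the transduced cells and at a higher control signal in L-428.

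Of the 1061 rows, 5.16% of all rows tested, 694 had a positive and 367 a negative difference (3.38% and 1.79%). They were divided by the lines in which EBF1 itself passed. In 45 rows EBF1 passed the adjusted p in both lines with opposite signs. In 236 rows it passed in L-428 and not in L-1236, and in 619 rows in L-1236 and not in L-428. In 43 it passed in both with the same sign and unequal size, and in the remaining 118 in neither line. Taken singly, the tests called 892 rows of all for L-428 (4.34%; 2.62% up and 1.72% down) and 1981 for L-1236 (9.64%; 3.69% up and 5.95% down).

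A call in one line and not in the other was not always a called difference. Of 587 rows that passed in L-428 only, the difference passed in 236, and of 1676 that passed in L-1236 only, in 619. For the remainder, the effects in the 2 lines were not shown to differ. Where the difference passed, the 95% interval of the effect was taken in the line without a call. It lay within 0.32 of 0 on the log2 scale in 206 of the 236 rows and in 517 of the 619. It lay within 1.5-fold in all 236 and all 619. These rows were chosen by an effect that did not pass, which limits its size, so the bounds follow in large part from that choice. Among the larger effects the lines differed in most cases. Of 20 rows called at 2-fold or more in L-428, 18 had a called difference, and of 30 in L-1236, 27. A difference of effects of 2-fold or more was called in 32 rows (0.156%), 16 of each sign.

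Leaving out both arrays that stand apart raised the number of called rows to 1897 (9.23% of all rows). It also turned the balance of signs, with 784 positive and 1113 negative. Of the 1061 rows, 962 passed in both fits. Of the 45 rows with opposite effects, the difference passed in all 45, and 42 kept opposite effects. Of the 32 with a 2-fold difference, 26 kept one. Opposite effects then numbered 136, effects in L-428 alone 552 and in L-1236 alone 901. Of the 236 rows with an effect called in L-428 alone, 197 kept that kind, and of the 619 in L-1236 alone, 501. Counts by sign and kind therefore rest in part on these arrays. The difference still passed in 88 of the 89 named genes, most of which were chosen for its size in the full fit.

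**Figure D1:**
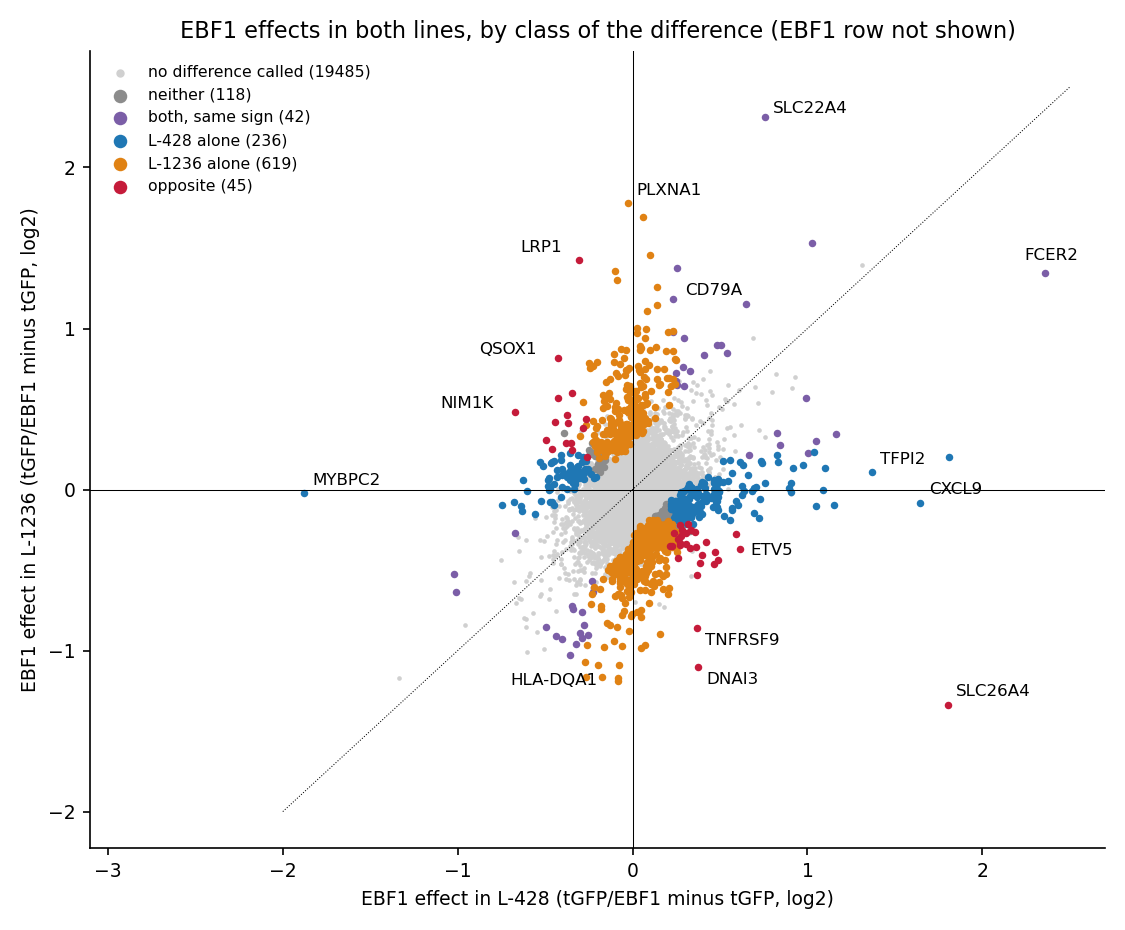
Each point is an array row other than that of EBF1, with the EBF1 effect in L-428 on the horizontal axis and in L-1236 on the vertical axis (log2, tGFP/EBF1 minus tGFP); colours give the kind of difference, and the dotted line marks equal effects. SLC26A4 lies far into the quadrant of a rise in L-428 and a fall in L-1236, while MYBPC2, CXCL9 and TFPI2 lie along the L-428 axis and PLXNA1 along the L-1236 axis.

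Opposite effects were led by SLC26A4, which encodes pendrin, an exchanger of chloride, iodide and bicarbonate. Its signal was 7.41, 7.23 and 7.11 on the L-428 tGFP arrays and 9.09, 9.02 and 9.04 on the L-428 tGFP/EBF1 arrays. In L-1236 it was 9.82, 9.87 and 9.89 with tGFP and 8.46, 8.65 and 8.48 with tGFP/EBF1. No array of one group overlapped another: the gene was low in L-428 controls, high in L-1236 controls, and in between in both lines with EBF1. It rose 3.48-fold in L-428 and fell by 1.34 in L-1236, or 2.52-fold, a difference of 3.14 (95% interval 2.92 to 3.36; limma, adjusted p = 1.72e-12). The control gap between lines of -2.61 became 0.52 with EBF1, so the order of the lines turned. In bulk RNA a change in the share of cells that express a gene and a change in RNA per cell cannot be told apart.

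Of 9 SLC26 exchangers measured, SLC26A4 was the 1 with a called difference (5.16% of all rows), and the other 8 had differences between -0.24 (SLC26A6) and 0.12 (SLC26A3). Without both arrays that stand apart SLC26A2 and SLC26A6 were called too, both negative. Of the 3 measured genes on each side of it in RefSeq order, none had a called difference, the nearest to the limit being DUS4L (0.28; limma, adjusted p = 0.0712). SLC26A4 was also the only row of the 45 with both effects at 2-fold or even 1.5-fold. In 20 rows both effects reached 0.32 in size.

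DNAI3, a component of the axonemal dynein of cilia, took the same orientation. Its signal was 9.20, 9.14 and 8.84 in L-428 tGFP, 9.52, 9.40 and 9.38 in L-428 tGFP/EBF1, 9.87, 9.81 and 9.81 in L-1236 tGFP and 8.67, 8.85 and 8.67 in L-1236 tGFP/EBF1. The lines again exchanged places, the control gap of -0.78 becoming 0.70. DNAI3 rose by 0.37 in L-428 and fell by 1.10 in L-1236, a difference of 1.48 (limma, adjusted p = 3.62e-07). The rise in L-428 is small beside the spread of its controls, where the lowest value is on the array that stands apart. Both effects still passed in opposite directions without both arrays that stand apart and in 11 of 12 fits with a single array left out, but not after median centring.

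TNFRSF9, the costimulatory receptor 4-1BB that Hodgkin tumour cells carry, measured 9.12, 8.93 and 8.77 in L-428 tGFP and 9.36, 9.26 and 9.31 in L-428 tGFP/EBF1. In L-1236 it measured 10.97, 10.99 and 10.99 with tGFP and 10.05, 10.19 and 10.14 with tGFP/EBF1. Every L-1236 array lay above every L-428 array, and EBF1 narrowed the gap from -2.05 to -0.82. The rise of 0.37 and the fall of 0.86 gave a difference of 1.23 (limma, adjusted p = 1.13e-06). IL6, a cytokine whose promoter carries the NF-kappaB match shown above, did the same on a smaller scale, rising by 0.36 in L-428 (8.49, 8.42 and 8.24 against 8.86, 8.67 and 8.69) and falling by 0.27 in L-1236 (10.68, 10.57 and 10.59 against 10.24, 10.39 and 10.40). Its difference was 0.62 (limma, adjusted p = 0.00117), and the 2 lines did not overlap. Both IL6 effects passed in 7 of 12 fits with a single array left out, but not both after median centring.

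ETV5, an ETS factor induced by MAPK signalling, rose by 0.61 and fell by 0.37, and its lines exchanged places, from a gap of -0.21 to 0.77. RGS16, which shortens G-protein signals, rose by 0.37 in L-428 and fell by 0.53 in L-1236. PIEZO2, a mechanically gated cation channel, is on the array in 2 rows, and both agreed: 0.49 and -0.44 in the first, 0.39 and -0.46 in the second. The anthrax toxin receptor ANTXR2 rose by 0.59 and fell by 0.28, and the alpha kinase ALPK2 rose by 0.47 and fell by 0.46. In each of these 4 genes other than ETV5, L-1236 stayed the brighter line. The BTB zinc finger gene ZBTB21 (0.40 and -0.41), the cancer-testis gene SSX1 (0.42 and -0.33), the chaperone partner CHORDC1 (0.31 and -0.34), the heat-inducible ZFAND2A (0.23 and -0.35), the antioxidant reductase SRXN1 (0.28 and -0.29) and the complement protease C1S (0.27 and -0.22) were among the others. The 29 rows had median effects of 0.33 and -0.35, so most of the opposite effects were small in both lines.

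The reverse orientation, lower in L-428 and higher in L-1236 with EBF1, held 16 rows and was led by LRP1, a large endocytic receptor of the LDL receptor family. LRP1 measured 8.04, 7.97 and 7.94 in L-428 tGFP, 7.65, 7.67 and 7.72 in L-428 tGFP/EBF1, 9.02, 9.07 and 8.99 in L-1236 tGFP and 10.42, 10.53 and 10.40 in L-1236 tGFP/EBF1. The 4 groups did not overlap, and EBF1 widened the gap from -1.04 to -2.78. The rise of 1.43 in L-1236 was far larger than the fall of 0.31 in L-428, and the difference was -1.73 (95% interval -1.90 to -1.56; limma, adjusted p = 4.32e-10). LRP1 was the 1 gene called of 14 measured in the list of cholesterol synthesis and uptake genes, beside 5.16% of all rows. In the fit without the 2 arrays that stand apart, HMGCS1, SC5D and SREBF2 were called as well, and all 4 differences were negative.

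QSOX1, which forms disulfide bonds in secreted proteins, measured 9.34, 9.20 and 8.91 in L-428 tGFP and 8.63, 8.75 and 8.79 in L-428 tGFP/EBF1, against 10.42, 10.41 and 10.40 and then 11.19, 11.31 and 11.18 in L-1236. Its gap also widened, from -1.26 to -2.51, with a difference of -1.24 (limma, adjusted p = 3.59e-06). NIM1K, a protein kinase, measured 8.01, 7.84 and 7.88 in L-428 tGFP and 7.24, 7.35 and 7.13 in L-428 tGFP/EBF1, against 7.45, 7.54 and 7.39 and then 7.90, 8.01 and 7.90 in L-1236. Here the lines exchanged places: the L-428 controls were above the L-1236 controls and the L-428 EBF1 arrays below the L-1236 EBF1 arrays. The effects were -0.67 and 0.48 and the difference -1.15 (limma, adjusted p = 1.22e-06).

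In the 5 other leading genes of this orientation the L-428 controls were the brighter. BHLHE41, a repressor of the circadian clock family, had effects of -0.37 and 0.47, and the gap of 0.44 turned to -0.40. CD59, the membrane inhibitor of complement lysis, had effects of -0.42 and 0.57, and PGAP1, an enzyme that trims the lipid anchor by which CD59 is held, -0.35 and 0.60. P4HA2, a collagen prolyl hydroxylase, had -0.44 and 0.42, and GMFG, a regulator of actin branching in leukocytes, -0.49 and 0.31. With EBF1 the gap between lines was 0.10 or less either way for PGAP1, P4HA2 and GMFG. NRP2, a semaphorin co-receptor (-0.37 and 0.41), CLU, a secreted chaperone (-0.35 and 0.25), FBXO32, a ubiquitin ligase subunit (-0.46 and 0.25), and ARID5B, a chromatin factor (-0.35 and 0.29), took this orientation too.

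**Figure D2:**
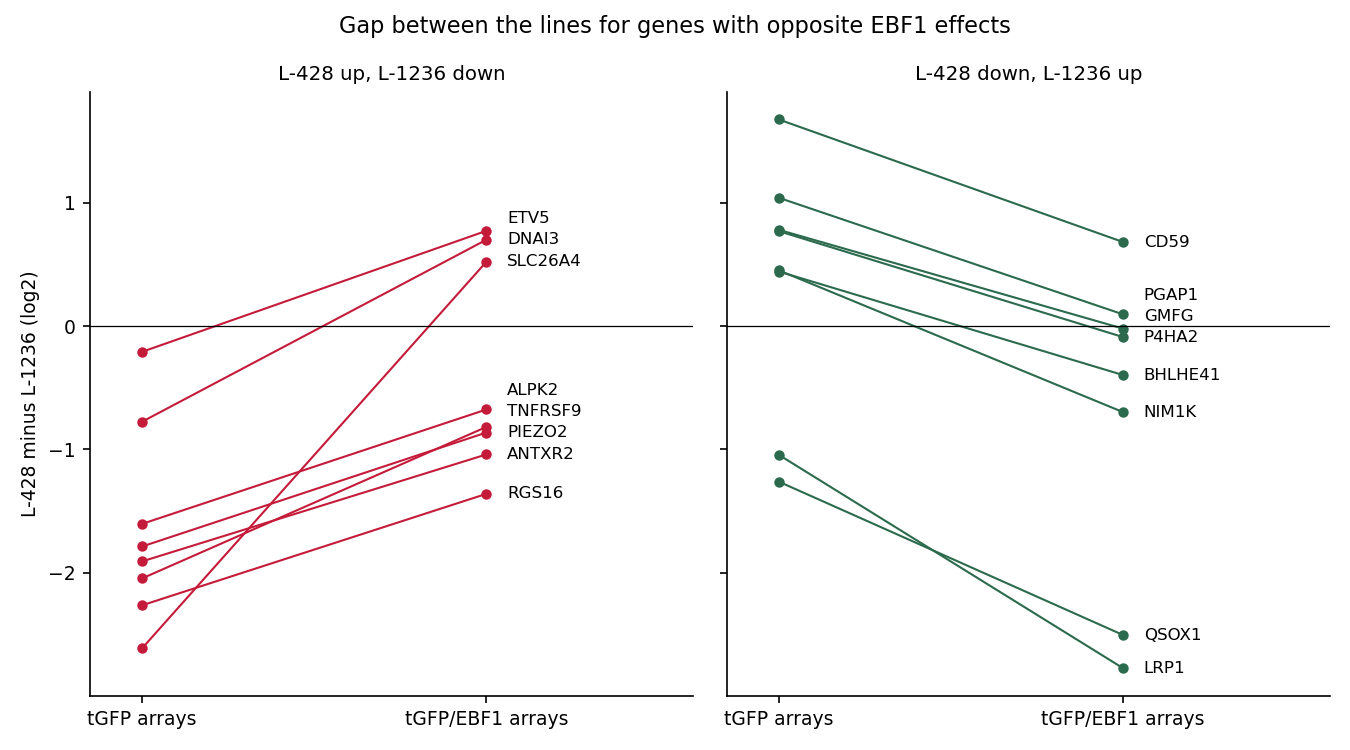
Each line joins the difference between lines (L-428 minus L-1236, log2, means of 3 arrays) on the tGFP arrays with that on the tGFP/EBF1 arrays, for the 8 leading genes of each opposite orientation. SLC26A4, DNAI3 and ETV5 cross 0 upwards and NIM1K and BHLHE41 clearly downwards, while LRP1 and QSOX1 move away from 0.

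Of the 45 rows, which were chosen by calls on these same arrays, 43 had no overlap between the EBF1 and control arrays in either line. That separation follows largely from the choice. Among all rows tested, 519 (2.53%) had opposite signs and no such overlap. The effect was larger in L-1236 in 23 rows and in L-428 in 22. All 45 kept opposite signs and a called difference when any single array was left out, but the demand that both effects pass was met in all 12 such fits by 16 rows. These 16, which also stayed opposite under quantile normalization, median centring and without both arrays that stand apart, were SLC26A4, LRP1, QSOX1, TNFRSF9, NIM1K, ETV5, ALPK2, both PIEZO2 rows, RGS16, P4HA2, BHLHE41, ZBTB21, GMFG, FAM9C and a row of the histone genes H4C15 and H4C14. Without both arrays H2BC5, ATL3 and SEMA4A left the group of opposite effects, and after median centring it held 25 of the 45.

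Effects called in L-428 alone comprised 167 rises and 69 falls. The largest fall was in MYBPC2, which encodes the fast skeletal muscle form of myosin-binding protein C. It measured 10.41, 10.55 and 10.29 in L-428 tGFP, 8.52, 8.57 and 8.52 in L-428 tGFP/EBF1, 6.80, 6.73 and 6.95 in L-1236 tGFP and 6.83, 6.76 and 6.83 in L-1236 tGFP/EBF1. Every L-1236 array was below that array's median signal, and the 2 L-1236 groups overlapped. MYBPC2 fell by 1.88 in L-428, or 3.68-fold, and its effect in L-1236 was -0.02 (95% interval -0.17 to 0.13), a difference of -1.86 (limma, adjusted p = 1.5e-09). No other of 26 sarcomere genes had a called difference, and none of the 6 measured neighbours did. One of these, SPIB, a B-cell ETS factor next to MYBPC2, rose by 0.39 in L-428 with a difference of 0.34 that did not pass (limma, adjusted p = 0.0771).

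CXCL9, an interferon-gamma-induced chemokine that draws T cells through CXCR3, had the largest rise in L-428 among genes whose L-1236 effect was bounded within 0.32 of 0. It measured 7.16, 7.05 and 7.02 with tGFP and 8.81, 8.66 and 8.71 with tGFP/EBF1, against 6.30, 6.27 and 6.23 and then 6.25, 6.11 and 6.18 in L-1236. All L-1236 arrays were dim and overlapped between groups, while the L-428 groups were clearly apart. The rise of 1.65, or 3.13-fold, and the L-1236 effect of -0.08 (95% interval -0.21 to 0.05) gave a difference of 1.73 (limma, adjusted p = 1.23e-09). Its partners showed other patterns. CXCL10, 2 places away in gene order, fell by 0.58 in L-1236 and had an effect of 0.08 in L-428 (difference 0.65; limma, adjusted p = 0.00326). CXCL11 fell by 0.31 in L-1236, with a difference of 0.32 that did not pass (limma, adjusted p = 0.0858). The receptor CXCR3 fell by 0.40 in L-428 alone (difference -0.53; limma, adjusted p = 0.00851), so ligand and receptor moved apart in that line.

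TFPI2, a secreted protease inhibitor, rose by 1.37, from 8.75, 8.97 and 8.62 to 10.20, 10.04 and 10.20, while L-1236 stayed at 6.31 to 6.65. CHRNA1, a muscle acetylcholine receptor subunit, rose by 1.09 (7.71, 7.56 and 7.59 to 8.75, 8.62 and 8.77) and had an effect of 0.00 in L-1236 (95% interval -0.14 to 0.14). PRKCH, a protein kinase C of lymphocytes and epithelia, rose by 1.05, the trace amine receptor TAAR6 by 0.91 and the growth factor BMP6 by 0.89. In all of TFPI2, CHRNA1, PRKCH, TAAR6, BMP6 and CXCL9, each of the 6 L-1236 arrays was under its median. GNG11, a G-protein gamma subunit (effects 1.15 and -0.10), and MRAP2, a melanocortin receptor accessory protein (1.81 and 0.20), also had 2-fold differences, but their L-1236 effects were not bounded within 0.32 of 0.

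Several immune genes belonged to this class. FOS, an AP-1 subunit, rose by 1.04 in L-428 (8.92, 8.83 and 8.39 against 9.82, 9.72 and 9.71) and had an effect of 0.23 in L-1236 that did not pass (limma, adjusted p = 0.183). IL2RA, the IL-2 receptor alpha chain, rose by 0.57 in L-428, PECAM1, an adhesion molecule of leukocytes and endothelium, by 0.72, and the plasma cell and germinal centre antigen CD38 by 0.49. Falls in L-428 alone included ITGAL, the LFA-1 integrin chain (-0.74), the tetraspanin TSPAN8 (-0.62), PRKCB, a kinase of B-cell receptor signalling (-0.60), the tubulin regulator STMN2 (-0.51), RAPH1, an actin regulator (-0.47), and the laminin receptor chain ITGA6 (-0.46). Of these 6, all but RAPH1 were under the median on every L-1236 array.

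**Figure D3:**
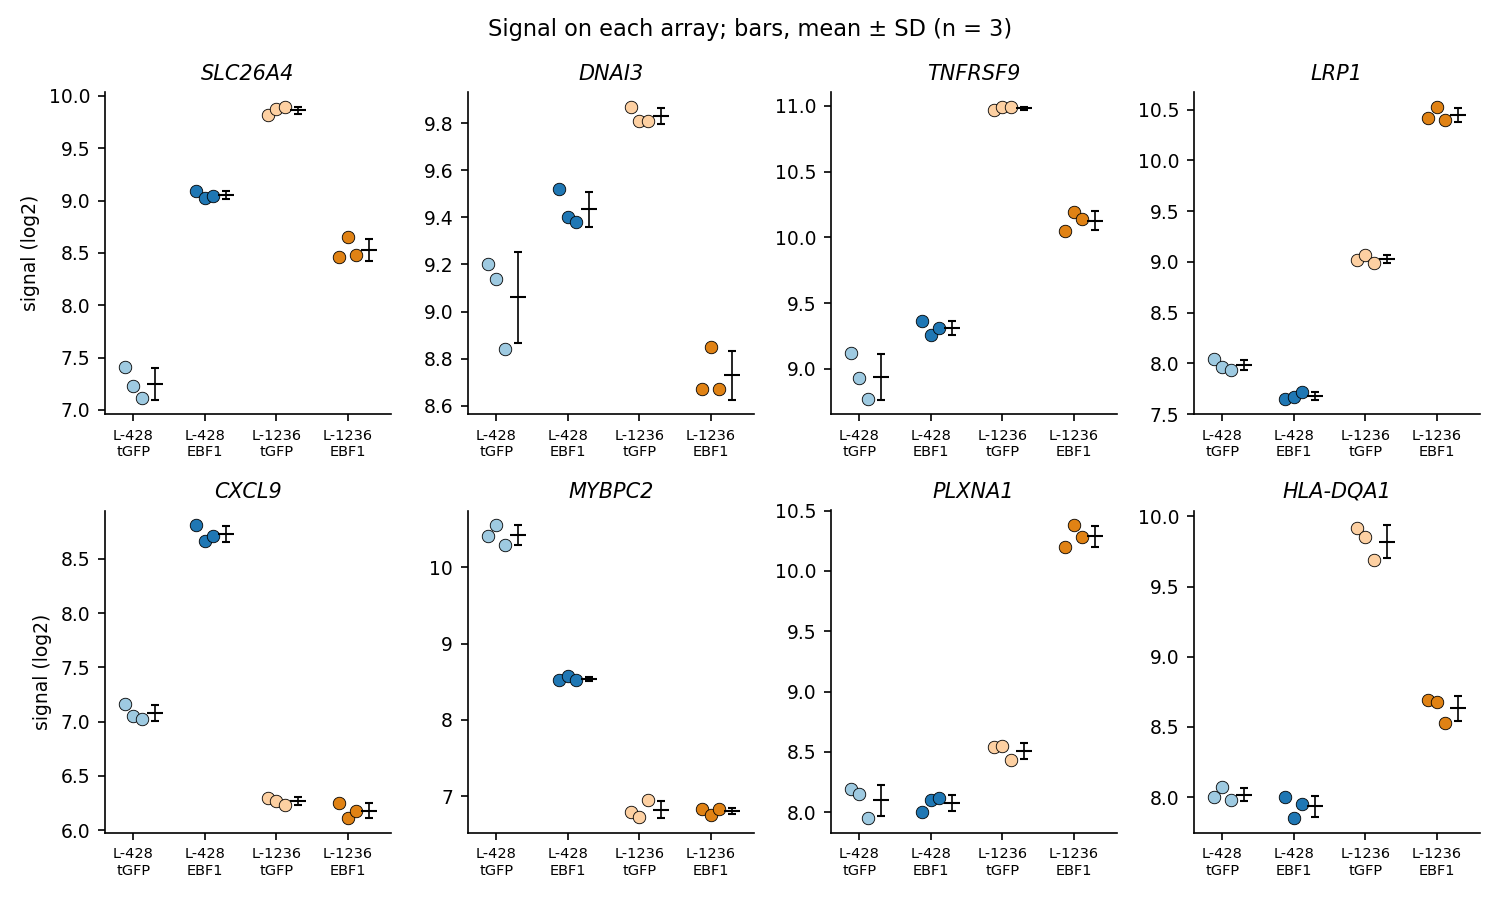
Log2 signal of 8 genes on each of the 12 arrays (points) with the mean ± SD of each group (bars, n = 3); each panel has its own scale. SLC26A4 rises in L-428 and falls in L-1236, CXCL9 and MYBPC2 change in L-428 and stay near 6.2 and 6.8 in L-1236, and PLXNA1 and HLA-DQA1 change in L-1236.

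Effects called in L-1236 alone comprised 236 rises and 383 falls. PLXNA1, a receptor for semaphorins, led the rises. It lay between 7.95 and 8.19 on all 6 L-428 arrays, with or without EBF1, against 8.54, 8.55 and 8.43 in L-1236 tGFP and 10.20, 10.38 and 10.28 in L-1236 tGFP/EBF1. The gene was above the median of at least 1 array in both lines, and the L-428 groups overlapped. The rise of 1.78, or 3.43-fold, and the L-428 effect of -0.03 (95% interval -0.18 to 0.12) gave a difference of -1.81 (limma, adjusted p = 2.3e-09). Of 30 semaphorins, plexins and neuropilins, 6 had called differences: PLXNA1 with a rise in L-1236 alone, PLXNC1 with a fall of 0.90 in L-1236 against 0.25 in L-428, NRP2 (-0.37 and 0.41) and SEMA4A (0.31 and -0.22) with opposite effects, and SEMA6A (-0.48) and SEMA4D (-0.27) with falls in L-428 alone. These 6 were 20% of the list, beside 5.16% of all rows. When both arrays that stand apart were left out, 8 were called (26.7%, beside 9.23% of all rows), with SEMA4B and PLXNA3 added. None of 6 measured neighbours of PLXNA1 had a called difference.

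FAR2, which makes fatty alcohols, and the olfactory receptor pseudogene OR5E1P rose in L-1236 from levels that were dim in both control groups. FAR2 measured 6.18, 6.22 and 6.22 and then 6.19, 6.35 and 6.39 in L-428, and 6.25, 6.28 and 6.38 and then 7.65, 7.78 and 7.86 in L-1236. Only the L-1236 EBF1 arrays stood out, 1.46 above their controls, and the difference was -1.35 (limma, adjusted p = 1.15e-07). OR5E1P rose by 1.69 in the same manner. CST1, a cystatin, instead was already brighter in L-1236 controls (9.16, 9.07 and 9.17 against 6.43, 6.76 and 6.37 in L-428) and rose by 1.30 there. CYP4Z1, a fatty acid hydroxylase, rose by 1.26 in L-1236 and passed the L-428 level, but its near-identical pseudogene CYP4Z2P (difference -1.03) can share its signal, so the value is uncertain. The scaffold protein MAPKBP1 rose by 1.15 and the mitotic kinase PLK1 by 0.79, from 10.87, 10.91 and 10.90 to 11.69, 11.73 and 11.62. PLK1 had an effect of -0.25 in L-428 that did not pass (limma, adjusted p = 0.0789). A row of immunoglobulin heavy chain symbols that include IGHM rose by 1.36 in L-1236, against -0.10 in L-428.

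Falls in L-1236 alone were led by HLA-DQA1, an MHC class II chain that presents antigen. It lay between 7.85 and 8.07 on all 6 L-428 arrays and measured 9.92, 9.85 and 9.69 with tGFP and 8.69, 8.68 and 8.53 with tGFP/EBF1 in L-1236. Only the L-1236 groups were apart, by 1.19, and the difference was 1.10 (limma, adjusted p = 1.79e-06). Near-identical HLA-DQ copies can share this signal, so the value is uncertain; its partner chain HLA-DQB1 fell by 0.55. A further row, annotated with HLA-DQA2 and HLA-DQA1, also fell in L-1236, by 1.09, but was the brighter in L-428 (control means 12.99 and 11.69), so the level of the gene in each line is not settled by these rows. The other 9 of 11 MHC class II genes measured had no called difference. Without both arrays that stand apart HLA-DMA, HLA-DOB and CTSS were called too, which gave 3 positive and 2 negative differences. CYP19A1, the aromatase that makes oestrogens, fell by 1.17 (means 10.09 and 8.92), CAMSAP2, a microtubule end protein, by 0.98, and the GTPase RAB30 by 0.97. CCR4, the receptor for CCL22, fell by 1.07 in L-1236, with an L-428 effect of -0.27 that did not pass (limma, adjusted p = 0.0738). The synaptic protein SNAP25 (0.16 and -0.90) and a row of the Fc receptors FCGR2C and FCGR2B (0.07 and -0.97) also had 2-fold differences.

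In 43 rows EBF1 moved a gene the same way in both lines but unequally, in 32 more strongly in L-1236 and in 11 in L-428. SLC22A4, a carnitine and ergothioneine transporter, started at equal levels (7.29, 7.26 and 7.27 in L-428, 7.24, 7.37 and 7.28 in L-1236) and reached 8.10, 7.95 and 8.05 in L-428 and 9.35, 9.80 and 9.68 in L-1236. All EBF1 arrays lay above all controls, and those of L-1236 highest. The rises of 0.76 and 2.31 gave a difference of -1.56 (limma, adjusted p = 3.51e-07). CD79A, the alpha chain of B-cell receptor signalling and a known EBF1 target, also started level (6.92, 6.97 and 6.98 against 7.07, 7.02 and 6.92) and reached 7.19, 7.23 and 7.15 in L-428 but 8.14, 8.15 and 8.26 in L-1236 (difference -0.95; limma, adjusted p = 1.79e-06). IL7, a lymphocyte growth factor, rose by 0.26 and 1.37 and the pro-death BCL2 relative BMF by 0.23 and 0.98.

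The stronger rises in L-428 were in FCER2 (2.36 and 1.35), the low-affinity IgE receptor CD23, in NSMF (1.16 and 0.35), in the secreted glycoprotein LGALS3BP (1.01 and 0.22) and in CD40, a costimulatory receptor of B cells (1.05 and 0.30). FCER2 and CD40 were brighter in L-1236 to begin with. FCER2 measured 8.47, 8.52 and 8.29 in L-428 tGFP against 10.77, 10.79 and 10.69 in L-1236 tGFP, and reached 10.77, 10.81 and 10.79 in L-428 and 12.02, 12.16 and 12.12 in L-1236. The L-428 cells with EBF1 thus stood at the level of the L-1236 controls (difference of effects 1.01; limma, adjusted p = 2.42e-06).

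The level of a gene in each line was then set beside its kind of response, as a description. The control arrays enter the EBF1 effect, so their noise alone ties a high control to a fall, and an average over control and EBF1 arrays is moved by the effect itself. On the control arrays, genes that fell in L-428 alone had a median gap of 1.01 (L-428 minus L-1236, beside -0.006 over all rows), and 35 of the 69 (50.7%) were at least 2-fold brighter in L-428, as were 4.16% of all rows. Genes that fell in L-1236 alone had a median control gap of -0.33, and 88 of the 383 (23%) were at least 2-fold brighter in L-1236, as were 3.04% of all rows. For rises the control gaps were smaller, with medians of 0.17 for L-428 alone and -0.11 for L-1236 alone. At least 2-fold brighter in the responding line were 19 of the 167 (11.4%) and 37 of the 236 (15.7%), and in the other line 12 and 22. With all arrays, a clearly brighter control in the responding line was thus most frequent among falls. For rises in L-428 alone the 19 and 12 stood in nearly the ratio of all rows (4.16% and 3.04%). Without both arrays that stand apart, falls in L-428 alone numbered 345 in place of 69, and control gaps are not given for that fit.

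A gene was called dim in a line when it was under the array median on all 6 arrays. In the line without a called effect, 43 of the 167 genes that rose in L-428 alone were dim (25.7%) and 24 of the 69 that fell (34.8%), beside 38.4% of all rows in L-1236. For effects in L-1236 alone, 68 of the 236 that rose (28.8%) and 66 of the 383 that fell (17.2%) were dim in L-428, beside 38.3% of all rows. Without both arrays that stand apart, 71 of 207 rises in L-428 alone (34.3%) and 45 of 345 falls (13%) were dim in L-1236, beside 39.3%. For L-1236 alone, 90 of 497 rises (18.1%) and 87 of 404 falls (21.5%) were then dim in L-428, beside 38.7%. The greater part of each class was therefore not dim in the other line in either fit. PLXNA1, CYP19A1, MAPKBP1, PLK1, IER3 and TRIB3 were above the median of at least 1 array in both lines and had a called effect in 1. In the line without a call, the 95% interval still excluded 0 for PLK1 (L-428, -0.41 to -0.09) and TRIB3 (L-1236, -0.37 to -0.01). A dim start did not bar a rise, but it was less frequent among rises than among all rows. Of the 236 genes that rose in L-1236 alone, 52 were dim on the L-1236 control arrays (22%, beside 40.4% of all rows), FAR2 among them. Of the 167 that rose in L-428 alone, 24 were dim on the L-428 control arrays (14.4%, beside 39.4%). Array signals carry no measured background here. With the 25th percentile as the limit, the dim genes of the other line fell to 8 of 167, 4 of 69, 22 of 236 and 10 of 383. Of all rows, 13.7% were then dim in L-1236 and 13.6% in L-428.

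In nearly all rows with opposite effects the gene was above the dim limit in both lines. Of the 29 rows higher in L-428 and lower in L-1236, 1 was dim, in both lines, and of the 16 of the reverse kind 2 were dim in L-1236. The L-1236 control was at least 2-fold the brighter in 12 of the 29 (41.4%, against 3.04% of all rows) and the L-428 control in 1. Of the 16, the L-428 control was at least 2-fold the brighter in 3 and the L-1236 control in 4. EBF1 drew the lines nearer in 17 of the 29 and in 9 of the 16, compared with 44% of all rows. The order of the lines turned, with a called gap on both sides, in 51 of the 1061 rows, 7 of them with opposite effects, and in 80 rows without both arrays that stand apart. Besides SLC26A4, DNAI3, ETV5, NIM1K and BHLHE41, these 7 were SSX1 and USP13, a deubiquitinase. The comparison of control levels shares arrays with the rule that chose these rows and is a description.

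**Figure D4:**
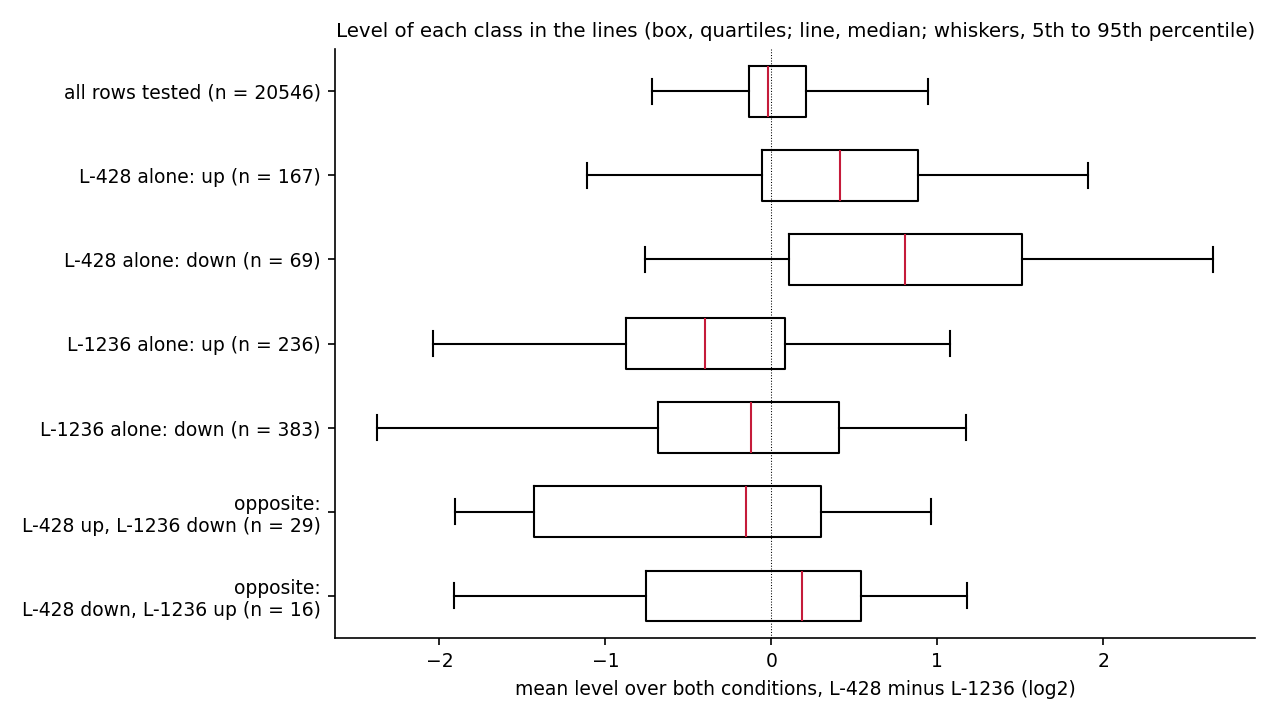
Box plots of the level in L-428 minus that in L-1236, averaged over control and EBF1 arrays (log2), for all rows tested and for 6 kinds of response; boxes span the quartiles, red lines the medians and whiskers the 5th to the 95th percentile. The medians are 0.41 and 0.81 for rises and falls in L-428 alone, and -0.40 and -0.12 for those in L-1236 alone, beside -0.02 for all rows; the EBF1 effect itself moves this average, so the boxes are a description.

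The gene lists are described by their counts, beside the 65.4% of all called rows that were positive, or 41.3% without both arrays that stand apart. The share of all rows with a called difference was 5.16%, and 9.23% without both arrays, so list counts of the 2 fits have different backgrounds. Of 29 NF-kappaB target genes, 9 had called differences, 8 of them positive and 1 negative, beside 5.16% of all rows. In L-428, 8 passed higher and 1 lower, and in L-1236, 4 higher and 7 lower. TNIP1, a brake on NF-kappaB (0.49), CD44, an adhesion receptor (0.47), GADD45B, a stress-induced survival gene (0.42), and IER3 (0.48) rose in L-428 alone. BCL3, an atypical IkappaB protein (-0.63), and the chemokine CCL3 (-0.52) fell in L-1236 alone, and IL6 moved in opposite ways. The chemokine CCL4 was the 1 negative difference, with a rise of 0.40 in L-1236. It was dim in both lines, and its L-1236 means were 5.78 with tGFP and 6.19 with tGFP/EBF1. The median difference over the list was 0.20, against -0.002 over all rows. With those 2 arrays left out, it was 0.065, with 7 positive and 4 negative calls.

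In the list of 23 genes of the unfolded protein response and amino acid stress, 6 had called differences, all positive. The pseudokinase TRIB3 (0.56), the death-promoting factor DDIT3 (0.46) and the stress factor ATF3 (0.24) rose in L-428 alone. CEBPB (-0.39), XBP1, the secretory factor of plasma cells (-0.31), and DDIT4, an inhibitor of mTOR (-0.42), fell in L-1236 alone. Their L-428 effects did not pass, but the 95% intervals excluded 0 for CEBPB (0.26, 0.09 to 0.42) and XBP1 (0.23, 0.07 to 0.39). For DDIT4 the L-428 effect was 0.10 (-0.07 to 0.28). TRIB3 measured 9.45, 9.56 and 9.09 in L-428 tGFP and 9.91, 9.93 and 9.93 in L-428 tGFP/EBF1, and the low control value is on the array that stands apart. The list's median difference was 0.31 with all arrays and 0.18 without both, where 7 members were called, all positive. Type I interferon response genes had 6 called of 28, also all positive, and here the changes were falls in L-1236. IFIT2, an RNA-binding antiviral protein, fell by 0.94 (8.07, 8.09 and 7.98 to 7.01, 7.20 and 7.10), IFIT3 by 0.60, MX1, an antiviral GTPase, by 0.45, IFIH1, an RNA sensor, by 0.35 and TRIM22 by 0.32, none with a called effect in L-428. NMI fell in both lines, by 0.36 and 1.02. Of these 28 genes, 10 fell in L-1236 and 3 in L-428. In the fit without the 2 arrays that stand apart, 7 were called, 6 positive and 1 negative, and the median difference was 0.016 in place of 0.085.

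Immediate early and MAPK feedback genes had 5 called of 24, all positive: FOS and IER3 with rises in L-428, DUSP5, a MAPK phosphatase, with a fall of 0.27 in L-1236, ETV5 with opposite effects, and PHLDA1 with neither effect called. Without both arrays that stand apart 6 were called, 5 positive and 1 negative. Of 29 B-cell receptor and surface genes, 6 were called in mixed directions, CD79A and PRKCB negative and FCER2, CD40, CD38 and the inhibitory receptor CD22 positive, CD22 by a fall of 0.40 in L-1236. In the fit without both arrays 8 were called, 5 positive and 3 negative. Of 20 B-cell transcription factors, BCL6, the germinal centre repressor, rose by 0.40 in L-1236 and had an effect of -0.27 in L-428 (limma, adjusted p = 0.0571), a difference of -0.67. PAX5, the factor that fixes B-cell identity, had effects of 0.20 and -0.14, neither called, and a called difference of 0.34 (limma, adjusted p = 0.0246). LEF1 and IRF4 joined BCL6, XBP1 and PAX5 among the called factors without both arrays, with 2 positive and 3 negative differences.

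Of 26 Hodgkin marker genes, 6 were called, 2 positive and 4 negative. TNFRSF8 and NOTCH1 rose in L-1236 alone, by 0.51 and 0.65, and the chemokine CCL22 rose in both lines, by 1.03 and 1.53. TNFRSF9, IL6 and CLU had opposite effects. FUT4, CCL17, GATA3 and FSCN1 had no called difference. When both arrays that stand apart were left out, 9 of the 26 were called, FSCN1 among them, 2 positive and 7 negative. Of 23 JAK-STAT genes, IL7, IL2RA and CISH were called, and CISH rose by 0.47 in L-1236 (8.74, 8.76 and 8.74 to 9.20, 9.25 and 9.22) with an L-428 effect of -0.01 (95% interval -0.14 to 0.11). With those 2 arrays left out, 6 of the 23 were called, 1 positive and 5 negative. Of 21 cell division genes, PLK1 and AURKB were called (9.52%, beside 5.16% of all rows), both negative, and the list's median difference was -0.15. Without both arrays 9 of the 21 were called (42.9%, beside 9.23% of all rows), all negative, and the median was -0.27. DNA replication and G1/S genes had 2 called of 28 (7.14%), near the 5.16% of all rows. These were CCNE1 and E2F2, which fell by 0.35 and 0.26 in L-1236. Without both arrays that stand apart 6 were called, with MCM10, GINS2, CDT1 and CCND2 added, and 4 of the 6 differences were negative. The marker lists of other cell types held 2 of 24, 2 of 23 and 3 of 17 called genes (8.33%, 8.7% and 17.6%, beside 5.16% of all rows). Among them were CD4 (0.48 in L-1236), FCGR2A (-0.67 in L-1236), LAMP3 (0.33 in L-428) and VIM (-0.65 in L-1236). The part of these markers in the other results was not tested.

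**Figure D5:**
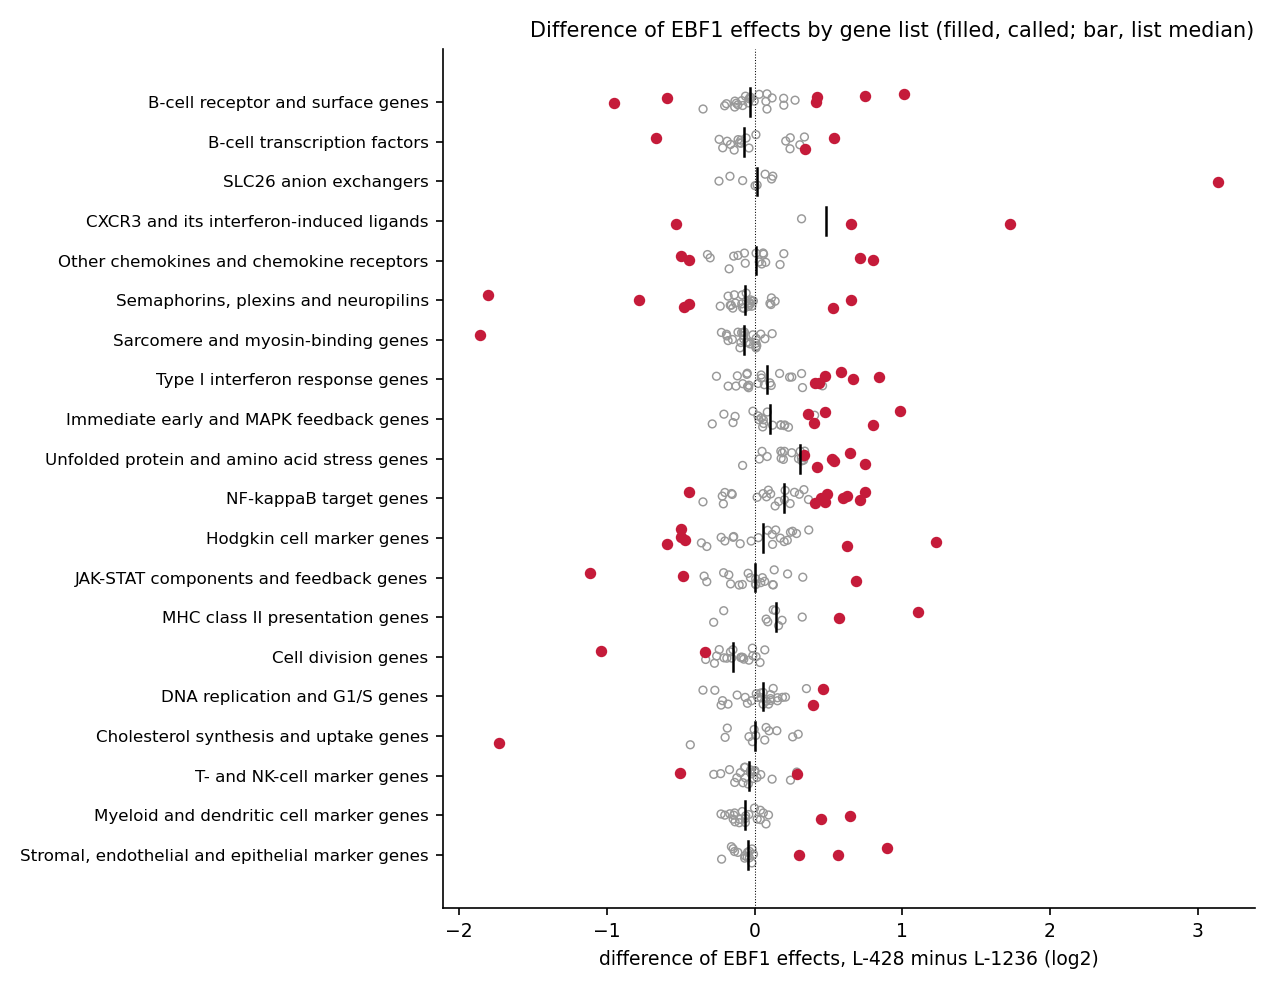
Difference of EBF1 effects (L-428 minus L-1236, log2) for every measured gene of 20 lists; filled points passed the adjusted p, open points did not, and bars mark list medians. Among lists with several called genes, all lie to the right of 0 in the interferon, immediate early, stress, MHC class II and G1/S lists. The same is seen in the myeloid and the stromal, endothelial and epithelial marker lists. In the cell division list all lie to the left. Without both arrays that stand apart this holds for the stress, cell division and these 2 marker lists. It does not hold for the interferon, immediate early, MHC class II and G1/S lists.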

How the data were processed

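RNA of 12 sorted samples, 3 for each of 4 groups, was measured on arrays of 1 colour. The authors deposited 1 table of log2 signals, with 1 column a sample; how background was corrected and probes were summarized and normalized is not given in the sources used here, and that the values are on the log2 scale was taken from their range. The deposited values were used unchanged. Rows were named through the platform annotation: 19158 had 1 symbol, 1388 several and 11775 none, and the last were not tested in the main comparison. Samples were grouped by their labels.

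The 4 group means were fitted to each of 20546 rows with limma 3.58.1 (lmFit and eBayes, R 4.3.3), without a block, and each contrast was adjusted by Benjamini-Hochberg over all rows at 0.05. The fit was checked on simulated data. The rows and gene lists were chosen with earlier results of these data known. Genes named by rule were SLC26A4, CXCL9, MYBPC2, PLXNA1 and EBF1, then by size of difference up to 8 of each opposite orientation, 6 per line and direction among effects bounded within 0.32 of 0 in the other line, 4 per stronger line among same-sign effects and 4 per list. Other genes were named after their values were seen. Promoters came from RefSeq (GRCh38.p14), and 38 of 42 opposite genes had one. Figures were drawn with matplotlib 3.10.9. Alternatives were other scalings, filters, weights, thresholds, replicate blocks and left-out arrays.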

Additional observations from a re-analysis of the deposited data

Results flagged for a closer look

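The genes below were picked out because the EBF1 effects in the 2 lines differed by a test of the difference itself (limma, adjusted p within 0.05) and are those with the largest differences of their kind. The differences (effect in L-428 minus effect in L-1236, log2) with opposite effects were 3.14 for SLC26A4, 1.48 for DNAI3, 1.23 for TNFRSF9, -1.73 for LRP1, -1.24 for QSOX1 and -1.15 for NIM1K. With an effect called in L-428 alone they were -1.86 for MYBPC2, 1.73 for CXCL9, 1.26 for TFPI2, 1.15 for PRKCH and 1.09 for CHRNA1. With an effect called in L-1236 alone they were -1.81 for PLXNA1, -1.64 for OR5E1P, -1.39 for CST1, -1.35 for FAR2 and -1.12 for CYP4Z1. In the same class they were -1.04 for PLK1, -1.01 for MAPKBP1, 1.10 for HLA-DQA1, 1.09 for CYP19A1 and 1.03 for CAMSAP2. With effects of the same sign they were -1.46 for EBF1, -1.56 for SLC22A4, -1.12 for IL7 and 1.01 for FCER2.

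Rows without a gene symbol lie outside the comparisons of the report. Among these 11775 rows, adjusted within them, limma called a difference of effects in 16 (0.136%), 7 positive and 9 negative, and 3 of them were 2-fold or more. Groups of 3 arrays were not screened for single deviating arrays gene by gene.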

How the results depend on the processing

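The count of rows with a 2-fold difference (32) stayed within 1.5 times in every fit and lay between 29 and 40 with a single array left out. The other counts moved with the setting, given here in the order difference, opposite, L-428 alone and L-1236 alone (1061, 45, 236 and 619). Quantile normalization gave 1865, 140, 424 and 1029 and median centring 599, 25, 119 and 374. Array weights gave 4538, 467, 743 and 2746, in a fit that did not reach its convergence tolerance, and gene-by-gene weights, chosen after seeing the data, 3194, 282, 788 and 1702. An adjusted p of 0.01 gave 479, 19, 110 and 296. Testing every row gave 676 differences and 141 in L-428 alone. Leaving out both arrays that stand apart gave 1897, 136 and 552 for the first 3 counts. With a single array left out the ranges were 672 to 1457, 27 to 89, 125 to 361 and 391 to 801; L-428 tGFP replicate 3 gave the highest of each, and without it 48.1% of differences were positive in place of 65.4% (58.6% after quantile normalization, 53.2% with array weights). A count moved by over 1.5 times also without L-428 tGFP/EBF1 replicate 1 (672, 27, 126), 2 (29, 149) or 3 (125), L-1236 tGFP replicate 2 (698, 391) or L-1236 tGFP/EBF1 replicate 3 (29 opposite). With the 25th percentile as the dim limit, 8, 4, 22 and 10 genes were dim in the other line in place of 43, 24, 68 and 66. The causes were not tested.

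Same-numbered samples did not deviate together in every pair, so the numbers were not taken to pair samples. With the replicate number as a block across groups the counts were 885, 36, 189 and 539, and with a block within each line 1196, 46, 278 and 702. Of 1869 combinations of 89 named genes and 21 settings, 1780 kept their call, 89 lost it and 0 reversed; AURKB, TBX21, CDH1, CCL4, IER3 and CD4 lost it in 10 to 14 settings each. Low signals near the array floor limit what can be seen of falls in dim genes.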
